A study of Mus musculus with 6 samples.

Results

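Laminins and nidogens are proteins of the basement membrane, the thin sheet of matrix under endothelium. Their transcripts were followed in bEnd.3, an immortalised endothelial cell line from mouse brain, after transfer of astrocyte mitochondria. The 10 genes were chosen by symbol: the laminin alpha chains Lama1, Lama2, Lama3, Lama4 and Lama5, the beta chains Lamb1 and Lamb2, the gamma chain Lamc1, and the nidogens Nid1 and Nid2. All 10 were found among the 55335 gene identifiers of the deposited tables. In the 3 Mito_T libraries, wild-type cells had been incubated for 24 h with mitochondria isolated from primary mouse astrocytes and suspended in 100 µl of medium, and in the 3 Ctrl libraries cells of the same genotype and line had received that volume of medium alone. The labels give no dose of mitochondria, and the controls received no sham particle, so medium with mitochondria is compared with medium only. Whether replicates were grown as separate cultures is not stated in the labels. The p-values then reflect how far these samples scatter, and that scatter may be technical only.

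A laminin is a heterotrimer of an alpha, a beta and a gamma chain, assembled in the endoplasmic reticulum and secreted as a cross-shaped molecule. Its alpha chain carries the sites that integrins and dystroglycan bind on the cell surface, and its gamma chain binds nidogen, which links the laminin sheet to type IV collagen and perlecan. In brain vessels, endothelial cells deposit laminins with alpha4 and alpha5 chains, whereas laminins with the alpha1 and alpha2 chains belong to the outer, parenchymal basement membrane to which astrocytes and leptomeningeal cells contribute. The alpha3 chain is known mainly from epithelia.

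Values are FPKM, fragments per kilobase of transcript scaled to library depth, so levels can be compared between genes of different length. The values themselves implied 22200000 to 27600000 fragments in Mito_T libraries and 17300000 to 21400000 in Ctrl libraries, without overlap in depth, and the part of depth in the results was not tested. Of all identifiers, 12639 reached 1 FPKM in at least 3 of the 6 libraries and were tested with limma on log2(FPKM + 1), with Benjamini-Hochberg adjustment over all of them. Calls required an adjusted p under 0.05, and a change is Mito_T minus Ctrl on that log2 scale. By this rule 141 genes were called, 1.12% of those tested, 59 of them higher and 82 lower in Mito_T. The endothelial label was met unevenly in both groups: of 15 endothelial markers 8 were under 1 FPKM in every library, with Cdh5 (VE-cadherin) at 0.0219 to 0.0685 FPKM in Mito_T and 0.0113 to 0.0384 FPKM in Ctrl libraries. Pecam1 was at 0.131 to 0.186 FPKM in Mito_T and 0.183 to 0.268 FPKM in Ctrl libraries, and the claudin Cldn5 was at 0 in 2 Mito_T and 1 Ctrl libraries and at most 0.129 FPKM. The other 7 endothelial markers were tested, with averages over all 6 libraries from 1.33 FPKM (Esam) up to 61.1 FPKM (Eng) and 70.2 FPKM (Cd34). Esam and Eng are named after seeing their values. The levels below are therefore those of the libraries labelled bEnd.3. In a bulk library, fewer cells of a kind and less RNA per cell cannot be told apart.

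Cells expressed a set of laminin chains that can form complete trimers, with Lama5, Lamb1 and Lamc1 the most abundant of each class, and both nidogens. Averaged over all 6 libraries, Nid2 stood at 65.7, Lamc1 at 64.9, Nid1 at 60.6, Lamb1 at 52.05 and Lama5 at 48.4 FPKM. Each of these overlapped the next in its range over libraries, so neighbours in this order are not resolved. The lowest Nid2 and Lamc1 libraries, at 62.98 and 59.05 FPKM, nevertheless lay above the highest Lamb1 and Lama5 libraries, at 55.5 and 52.2 FPKM. Below them, without overlap between neighbours, came Lamb2 at 22.7, Lama4 at 12.75, Lama1 at 5.07, Lama3 at 0.174 and Lama2 at 0.0349 FPKM. The first 5 lay above 92.1% of the genes tested, and Lama4 above 66.8%. Lama2 and Lama3 were under 1 FPKM in every library, so 8 of the 10 members were tested. Of other laminin chains, Lamb3 averaged 0.0665 FPKM in Mito_T and 0.0984 FPKM in Ctrl libraries. Lamc3 averaged 0.0366 FPKM in Mito_T and 0.0571 FPKM in Ctrl libraries. Its FPKM values did not overlap, but by the estimated depth they rest on about 4 to 6 fragments in Mito_T and 5 to 8 in Ctrl libraries. Neither Lamb3 nor Lamc3 reached the level for testing.

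**Figure D1:**
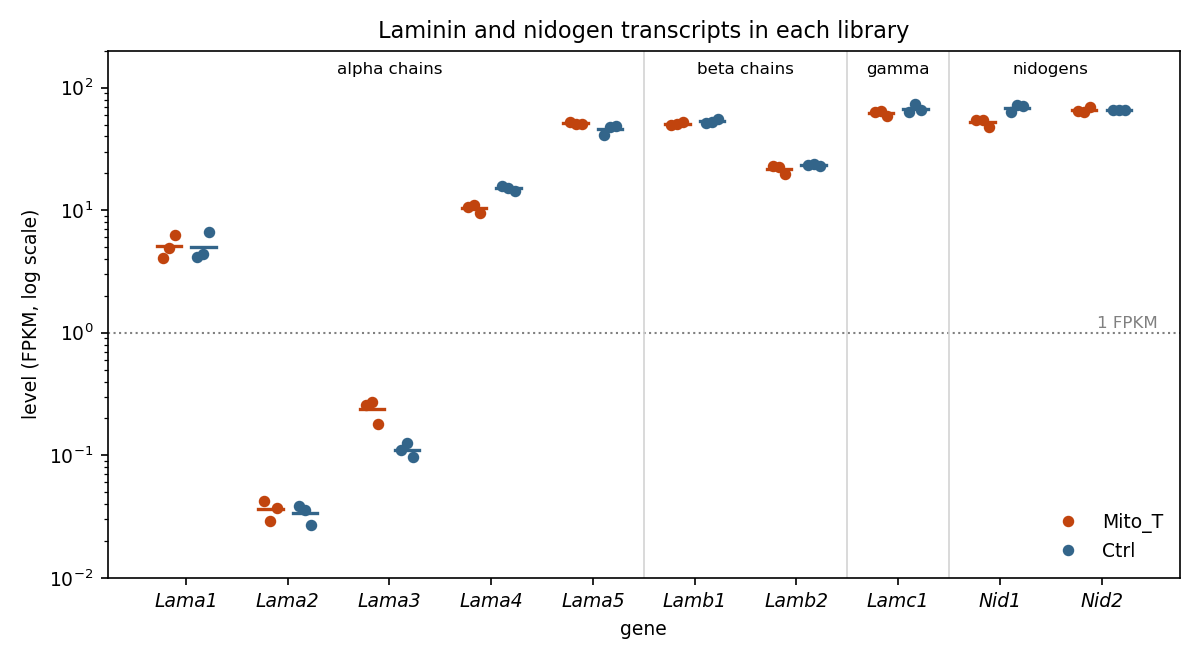
Level of each laminin and nidogen transcript in every library, in FPKM on a log axis, with Mito_T (red, left) and Ctrl (blue, right) libraries as points and the group mean as a bar. Lama4 and Nid1 lie lower and Lama3 and Lama5 higher in all Mito_T than in all Ctrl libraries, and Lama2 and Lama3 lie under the dotted line at 1 FPKM.

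Of the 8 tested members 1 was called, Lama4, which was lower in Mito_T. Over all genes 1.12% were called in either direction, 0.649% lower and 0.467% higher. The other 7 did not pass, among them both beta chains and the gamma chain that every trimer here needs. Mito_T and Ctrl libraries did not overlap for Lama4 and Nid1, lower in Mito_T, and for Lama5, higher in Mito_T, that is 3 of 8 members where 21.0% of all tested genes did not overlap, 11.4% lower and 9.62% higher. At an unadjusted p under 0.05 there were 2 members, Lama4 and Nid1, where 13.9% of all tested genes stood. The median log2 change of the 8 members was −0.08, against −0.01 over all genes tested, with 3 members above 0 and 5 below.

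Lama4 (ENSMUSG00000019846, chromosome 10, 38965515 to 39110188, plus strand, GRCm38) encodes the alpha4 chain, a short alpha chain that lacks most of the amino-terminal arm and is typical of vessels, muscle and fat. It was at 10.6, 11.1 and 9.42 FPKM in Mito_T replicates 1 to 3, against 15.7, 15.3 and 14.4 FPKM in Ctrl replicates 1 to 3. Every Mito_T library lay below every Ctrl library, and the gap between the nearest pair was larger than the range within either group. The means were 10.4 ± 0.855 FPKM in Mito_T and 15.1 ± 0.627 FPKM in Ctrl (SD, n = 3 each), a difference of −31.4% of the Ctrl mean. The log2 change was −0.51 (SE 0.07, 95% interval −0.68 to −0.33, limma adjusted p = 0.0324). The call was lost with no filter on low values (limma adjusted p = 0.114) and needed all 6 libraries: without any 1 of them the change stayed between −0.55 and −0.44, and the limma adjusted p lay between 0.054 (without Ctrl replicate 3) and 0.154 (without Mito_T replicate 1). Lama4 shared no 31-base word with a transcript of another gene and no exon with another gene.

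Lama5 (ENSMUSG00000015647, chromosome 2, 180176373 to 180225859, minus strand), which encodes the widely made alpha5 chain of mature endothelial basement membranes, was at 52.2, 50.3 and 50.5 FPKM in Mito_T replicates 1 to 3, against 41.2, 47.5 and 48.7 FPKM in Ctrl replicates 1 to 3. The Mito_T libraries were close together and all above the Ctrl libraries, of which replicate 1 was the lowest. The means were 51.05 ± 1.05 FPKM in Mito_T and 45.8 ± 4.03 FPKM in Ctrl (SD, n = 3 each), and the difference did not pass (log2 change 0.16, SE 0.07, 95% interval −0.01 to 0.33, limma adjusted p = 0.395). Without Ctrl replicate 1 the log2 change was 0.08.

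Lama1 (ENSMUSG00000032796, chromosome 17, 67697259 to 67822647), which encodes the alpha1 chain of the earliest embryonic basement membranes, was at 4.07, 4.89 and 6.32 FPKM in Mito_T replicates 1 to 3, against 4.14, 4.38 and 6.60 FPKM in Ctrl replicates 1 to 3. The groups overlapped fully, and replicate 3 was the highest of each group. Its log2 change was 0.02 with the widest interval of the tested members, −0.43 to 0.46 (limma adjusted p = 0.98).

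Lama2, the alpha2 chain of muscle and of the astrocyte-facing basement membrane, was at 0.0423, 0.0293 and 0.0370 FPKM in Mito_T replicates 1 to 3 and at 0.0382, 0.0355 and 0.0270 FPKM in Ctrl replicates 1 to 3. These levels rest on about 6 to 11 fragments per library by the estimated depth, and the groups overlapped. Lama3 was at 0.259, 0.273 and 0.179 FPKM in Mito_T replicates 1 to 3, against 0.111, 0.126 and 0.0963 FPKM in Ctrl replicates 1 to 3. All Mito_T libraries lay above all Ctrl libraries, at about 46 to 75 fragments in Mito_T and 20 to 25 in Ctrl libraries. As Lama3 did not reach the level for testing, the ratio of its means, 2.13, carries no test in the main comparison. Fitted with no filter on low values, Lama3 changed by 0.15 on the log2(FPKM + 1) scale and did not pass (limma adjusted p = 0.466). At levels this low, the added 1 FPKM makes the change on that scale much smaller than the ratio of means.

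The shares of the alpha chains are given as a description, without a test. Summed over the 5 alpha chains, the level was 66.8 ± 0.421 FPKM in Mito_T and 66.1 ± 4.48 FPKM in Ctrl libraries (SD, n = 3 each). Lama4 made up 15.8%, 16.6% and 14.2% of that sum in Mito_T replicates 1 to 3, against 25.6%, 22.7% and 20.7% in Ctrl replicates 1 to 3. Lama5 made up 77.7%, 75.6% and 76.01% in Mito_T replicates 1 to 3, against 67.4%, 70.6% and 69.7% in Ctrl replicates 1 to 3. The shares of both chains did not overlap between the groups, and the Lama5 to Lama4 ratio averaged 4.94 ± 0.409 in Mito_T and 3.04 ± 0.377 in Ctrl libraries. Lama1 held 7.63 ± 1.74% of the sum in Mito_T and 7.57 ± 1.63% in Ctrl libraries, and Lama2 and Lama3 together stayed under 1%. Shares of 1 sum are tied to each other, and of these chains Lama4 passed the test and Lama5 did not.

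**Figure D2:**
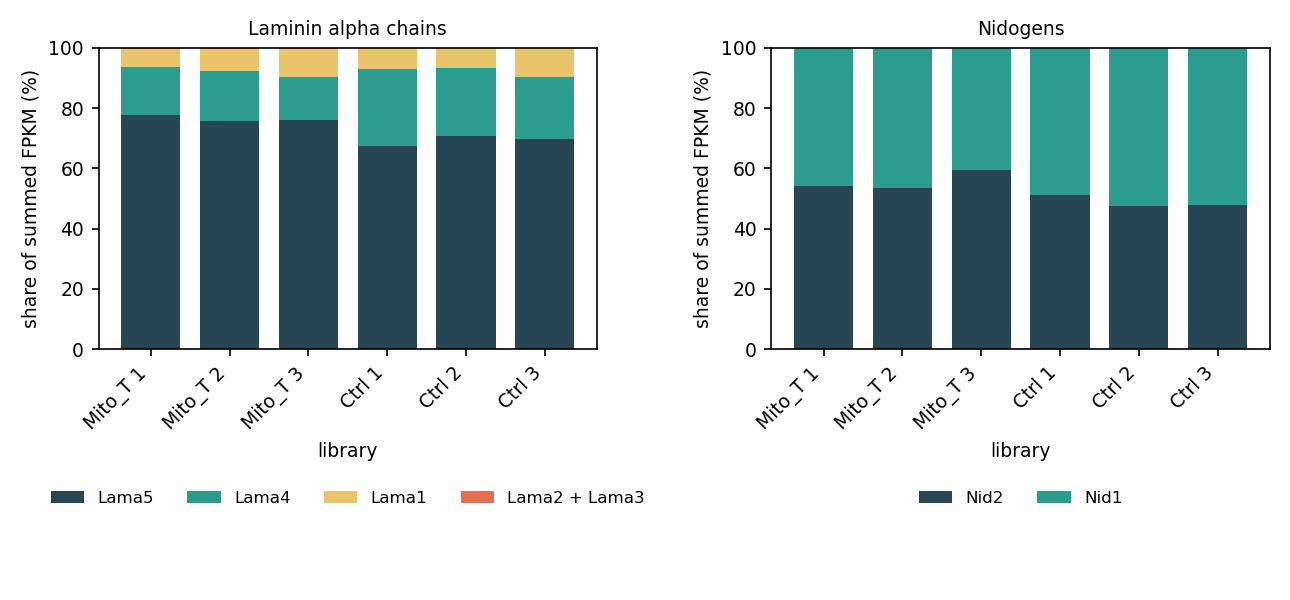
Share of each laminin alpha chain in the summed FPKM of the 5 alpha chains (left panel) and of each nidogen in the summed FPKM of both (right panel), in percent, for each library, with Mito_T libraries left of Ctrl libraries. The Lama4 segment averages 15.5% in Mito_T and 23.0% in Ctrl libraries, and the Nid1 segment 44.4% in Mito_T and 51.2% in Ctrl libraries; the segment of Lama2 and Lama3 is too thin to see.

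The beta and gamma chains did not pass the test. Lamb1, the beta1 chain that most vascular laminins contain, was at 49.5, 50.8 and 52.5 FPKM in Mito_T replicates 1 to 3, against 51.6, 52.3 and 55.5 FPKM in Ctrl replicates 1 to 3, with overlapping groups (log2 change −0.06, 95% interval −0.18 to 0.06, limma adjusted p = 0.671). Lamb2, the beta2 chain known from synapses, kidney glomeruli and arteriolar walls, was at 23.1, 22.7 and 19.8 FPKM in Mito_T replicates 1 to 3 and at 23.4, 23.95 and 23.04 FPKM in Ctrl replicates 1 to 3. Its groups overlapped, with Mito_T replicate 3 the lowest library of all (log2 change −0.10, 95% interval −0.26 to 0.06, limma adjusted p = 0.577). Lamc1, the gamma1 chain shared by nearly all laminins outside epithelia and the chain to which nidogens bind, was at 62.8, 64.9 and 59.05 FPKM in Mito_T replicates 1 to 3, against 63.1, 73.3 and 66.05 FPKM in Ctrl replicates 1 to 3. Its groups overlapped as well (log2 change −0.11, 95% interval −0.28 to 0.06, limma adjusted p = 0.54). Lamb1 made up 70.0 ± 2.33% of the summed beta chains in Mito_T and 69.4 ± 1.13% in Ctrl libraries. Per unit of Lamc1, the summed alpha chains stood at 1.07 ± 0.05 in Mito_T and 0.982 ± 0.0707 in Ctrl, and the summed beta chains at 1.17 ± 0.0474 in Mito_T and 1.14 ± 0.0852 in Ctrl libraries. Both ratios overlapped between the groups. The summed beta chains themselves stood at 72.7, 73.5 and 72.3 FPKM in Mito_T replicates 1 to 3, against 74.97, 76.3 and 78.6 FPKM in Ctrl replicates 1 to 3, lower in every Mito_T library and without a test.

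The nidogens, close relatives that both bridge laminin and type IV collagen, differed in their values, though neither passed the test and the difference between them was not tested. Nid1 (ENSMUSG00000005397, chromosome 13, 13437551 to 13512269, plus strand) was at 54.7, 54.6 and 48.1 FPKM in Mito_T replicates 1 to 3, against 63.5, 72.1 and 70.8 FPKM in Ctrl replicates 1 to 3. Every Mito_T library lay below every Ctrl library, and the means were 52.5 ± 3.79 FPKM in Mito_T and 68.8 ± 4.63 FPKM in Ctrl (SD, n = 3 each), a difference of −23.7% of the Ctrl mean. The log2 change of −0.38 (SE 0.08, 95% interval −0.56 to −0.20) had an unadjusted p of 0.00156 and missed the threshold over all genes (limma adjusted p = 0.0794). Nid2 (ENSMUSG00000021806, chromosome 14, 19751265 to 19811787, plus strand) was at 64.4, 62.98 and 69.96 FPKM in Mito_T replicates 1 to 3, against 66.1, 65.4 and 65.1 FPKM in Ctrl replicates 1 to 3. The groups overlapped and the log2 change was 0.00 with the interval −0.13 to 0.13 (limma adjusted p = 0.986). Nid2 exceeded Nid1 in all 3 Mito_T libraries, by ratios of 1.18, 1.15 and 1.46, and in 1 of the 3 Ctrl libraries, whose ratios were 1.04, 0.908 and 0.92. The summed nidogens stood at 118 ± 0.79 FPKM in Mito_T and 134 ± 4.18 FPKM in Ctrl libraries, with no overlap.

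Some reads could belong to neighbours or copies of the nidogens. Of the 31-base words of the longest Nid1 transcript, 2.71% also occur in Gm2399, which lay between 4.17 and 8.58 FPKM, so their fragments have no unique gene. Nid2 shares 437 exonic bases, 8.45% of its exons, with Rtraf on the opposite strand. Rtraf stood at 36.1 FPKM in Mito_T and 36.7 FPKM in Ctrl libraries (limma adjusted p = 0.927), and the sources used here do not say if quantification was by strand. Among the other 8 members at most 0.2% of words were shared with another gene.

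**Figure D3:**
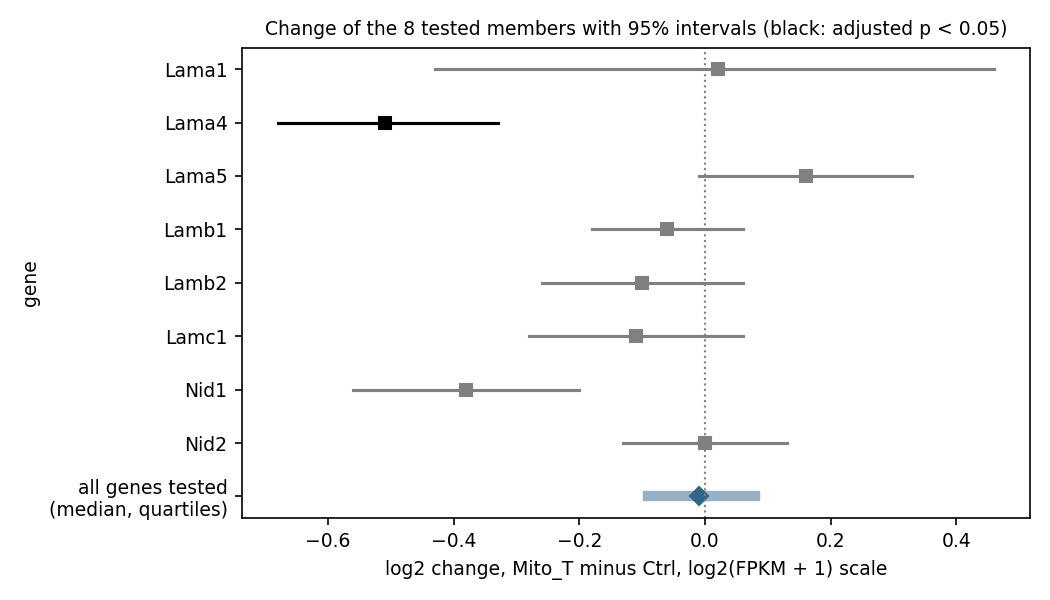
Log2 change, Mito_T minus Ctrl on the log2(FPKM + 1) scale, of the 8 tested members (squares) with 95% intervals from limma (lines), above the median and quartiles of all genes tested (diamond and bar). Lama4 at −0.51, in black, is the member with an adjusted p under 0.05; Nid1 at −0.38 has an interval below 0 but an adjusted p of 0.0794.

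The promoters of Nid1 and Lama5 are printed because they are tested members with a RefSeq promoter window (GRCm38.p6). Their Mito_T and Ctrl libraries did not overlap, on opposite sides. Windows were found for 5 of the 10 members and are the 250 bases before the RefSeq start, given 5′ to 3′ on the gene's strand. The gene positions above are GENCODE's, whose Nid1 start lies inside this window, so the last 51 of its bases, within the GENCODE gene, are counted but not printed. Capitals mark GGGCGG on either strand, the GC box bound by Sp-family factors.
Nid1, chr13:13437352-13437550, plus strand: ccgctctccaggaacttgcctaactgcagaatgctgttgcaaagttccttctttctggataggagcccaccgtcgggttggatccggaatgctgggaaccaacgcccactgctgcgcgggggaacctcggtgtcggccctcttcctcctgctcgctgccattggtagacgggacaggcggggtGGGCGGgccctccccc
Lama5, chr2:180225860-180226109, minus strand: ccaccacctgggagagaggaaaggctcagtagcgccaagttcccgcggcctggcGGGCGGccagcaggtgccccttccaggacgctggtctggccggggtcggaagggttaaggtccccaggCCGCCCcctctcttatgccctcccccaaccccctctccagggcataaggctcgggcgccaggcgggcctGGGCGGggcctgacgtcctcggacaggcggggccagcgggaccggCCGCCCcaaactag
GGGCGG, searched on both strands, occurred 1 time in the Nid1 window and 4 times in the Lama5 window. At least 1 match was present in 32.7% of all 32851 windows and at least 4 in 4.09%. Neither window held TATAAA on either strand, which 12.4% of all windows did, and CCAAT on either strand occurred 1 time in the Nid1 window and in 33.8% of all windows. GC content was 64.4% for Nid1 and 72.4% for Lama5, against a median of 52.4% over all windows. These matches describe the letters and say nothing of binding in these cells.

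Of the surface proteins that bind laminin, none of the 13 listed was called, where 1.12% of all genes were. All 13 were expressed and tested with limma. They comprised the laminin-binding integrin chains, dystroglycan (Dag1), Bcam, the tetraspanin Cd151 and syndecans. At an unadjusted p under 0.05 there were 3, and the list's median log2 change was −0.02. The smallest p was that of Sdc4, a heparan sulphate proteoglycan of focal adhesions, at 57.5, 60.2 and 59.6 FPKM in Mito_T replicates 1 to 3, against 77.4, 74.4 and 69.6 FPKM in Ctrl replicates 1 to 3 (log2 change −0.31, limma adjusted p = 0.0621). Sdc4 was called in 3 of the 10 alternatives that kept all libraries. The 11 tested enzymes that glycosylate dystroglycan for laminin binding had 0 calls by limma, against 1.12% of all genes. At an unadjusted p under 0.05 there were 0, against 13.9%, and log2 changes lay between −0.10 and 0.05. Pomgnt1 had the smallest p among them, at 9.71 ± 0.471 FPKM in Mito_T and 10.2 ± 0.586 FPKM in Ctrl libraries (limma adjusted p = 0.712).

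Of 28 other basement membrane genes 15 were tested and 2 were called, both lower in Mito_T, where 1.12% of all genes were called and 0.649% were called lower. The unadjusted p was under 0.05 for 3 of 15, against 13.9% of all genes. Of the 15 log2 changes 14 were below 0, as were 6577 of all 12639, and the median was −0.13 against −0.01 over all genes. Sparc, a collagen-binding glycoprotein, was at 234 ± 1.91 FPKM in Mito_T and 311 ± 12.4 FPKM in Ctrl (log2 change −0.40, limma adjusted p = 0.0272). Fbln1, a fibulin that binds nidogen and laminin, was at 30.9, 32.1 and 28.5 FPKM in Mito_T replicates 1 to 3, against 58.2, 50.2 and 42.7 FPKM in Ctrl replicates 1 to 3 (log2 change −0.70, limma adjusted p = 0.0461). Each of these calls was kept in 1 of the 6 fits that left out a library, with limma adjusted p up to 0.157 for Sparc and 0.175 for Fbln1. Both were lost with no filter (limma adjusted p = 0.0786 for Sparc and 0.159 for Fbln1), and Fbln1 also with plain empirical Bayes (0.0556). The tested chains of type IV collagen, the network to which nidogens connect laminin, are named outside the naming rule and after seeing their values. Col4a1 stood at 172 ± 19.7 FPKM in Mito_T and 194 ± 15.0 FPKM in Ctrl, and Col4a2 at 109 ± 4.70 FPKM in Mito_T and 120 ± 4.87 FPKM in Ctrl libraries. Col4a5, the 1 gene of the list with a log2 change above 0, stood at 21.1 ± 0.907 FPKM in Mito_T and 17.98 ± 2.67 FPKM in Ctrl libraries. None of these chains passed (limma adjusted p = 0.49 for Col4a1, 0.39 for Col4a2 and 0.395 for Col4a5).

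Among the proteases that cut laminin or nidogen and their inhibitors, 2 of 12 tested genes were called, both lower in Mito_T, where 1.12% of all genes were called and 0.649% were called lower. The unadjusted p was under 0.05 for 6 of 12, against 13.9% of all genes. For 5 of 12 the groups did not overlap, all lower in Mito_T, against 21.0% of all genes in either direction and 11.4% lower. Mmp3, a matrix metalloproteinase that cleaves laminin and nidogen, was at 103, 110 and 92.3 FPKM in Mito_T replicates 1 to 3, against 268, 213 and 169 FPKM in Ctrl replicates 1 to 3 (log2 change −1.06, limma adjusted p = 0.0409). Mmp2, a gelatinase of type IV collagen, averaged 1.80 ± 0.1 FPKM in Mito_T and 3.73 ± 0.553 FPKM in Ctrl (log2 change −0.75, limma adjusted p = 0.0288). Leaving out each of the 6 libraries in turn kept the calls of Mmp3 and Mmp2 in 1 fit each, with limma adjusted p up to 0.161 for Mmp3 and 0.124 for Mmp2, and both were lost with no filter (0.142 for Mmp3 and 0.105 for Mmp2). Both are proteases, and the median log2 change of the list was −0.15. The tested inhibitors, named after seeing their values, had log2 changes of 0.05 (Timp1), −0.19 (Timp2) and −0.34 (Timp3). None of them passed (limma adjusted p = 0.825 for Timp1, 0.211 for Timp2 and 0.307 for Timp3). The folding and collagen-modifying enzymes of the secretory pathway had 0 of 14 calls by limma, against 1.12% of all genes. At an unadjusted p under 0.05 there were 2 of 14, against 13.9% of all genes. Loxl2 had the smallest p, at 67.03 ± 4.44 FPKM in Mito_T and 79.4 ± 2.10 FPKM in Ctrl (limma adjusted p = 0.145).

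**Figure D4:**
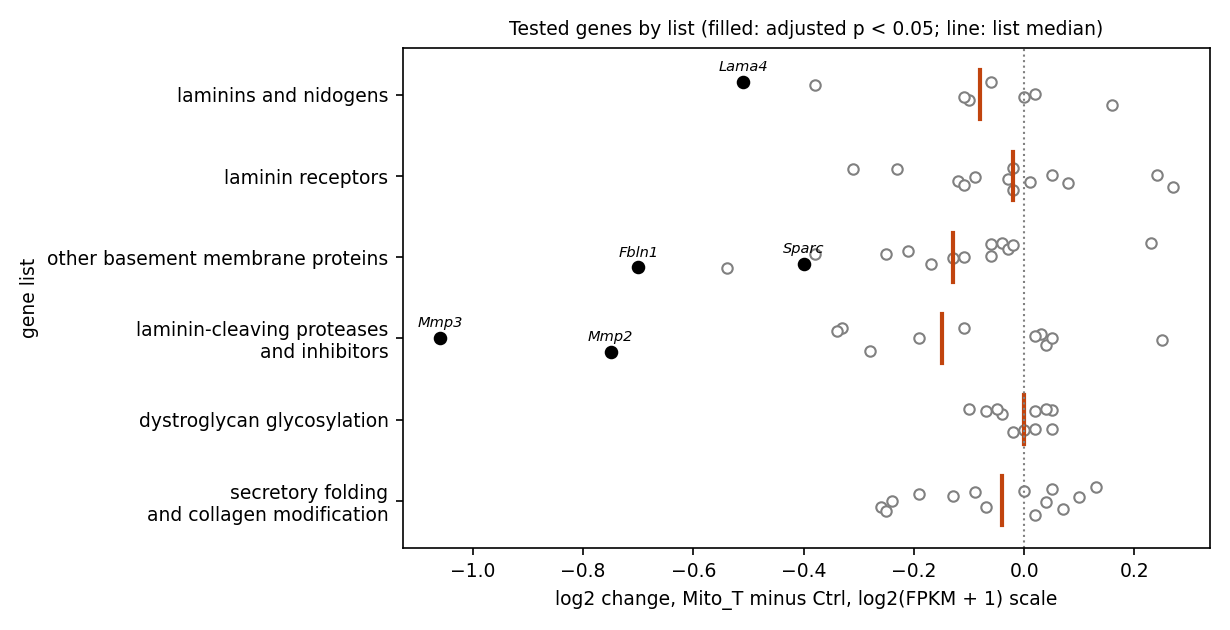
Log2 change, Mito_T minus Ctrl on the log2(FPKM + 1) scale, of each tested gene in the laminin and nidogen set and in 5 lists of receptors, matrix partners, proteases and processing enzymes; filled points have a limma adjusted p under 0.05 and vertical lines are list medians. The called genes, Lama4, Sparc, Fbln1, Mmp2 and Mmp3, all lie left of 0.

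Markers of other cell types were set beside these changes. Over all genes tested, 1.12% were called, 13.9% had an unadjusted p under 0.05 and 21.0% did not overlap between the groups. The 15 fibroblast and mural markers summed to 428 to 496 FPKM in Mito_T and 495 to 567 FPKM in Ctrl libraries, with 8 of 15 under 1 FPKM in every library and 1 of 7 tested genes called, Col1a1 at 83.9 ± 3.19 FPKM in Mito_T and 138 ± 2.45 FPKM in Ctrl (log2 change −0.71, limma adjusted p = 0.00547). The other 6 were not called: 4 of the 7 log2 changes were above 0, with a median of 0.07. Pdgfra at 22.6 ± 0.587 FPKM in Mito_T and 18.4 ± 0.756 FPKM in Ctrl (limma adjusted p = 0.0702), Acta2 at 2.18 ± 0.215 FPKM in Mito_T and 1.64 ± 0.107 FPKM in Ctrl (0.204) and Des at 6.65 ± 1.04 FPKM in Mito_T and 4.97 ± 0.595 FPKM in Ctrl (0.266) were higher in every Mito_T library, without passing. The endothelial markers summed to 162 to 175 FPKM in Mito_T and 140.5 to 148 FPKM in Ctrl libraries, a sum made up mostly of Cd34 and Eng. Of 7 tested genes 1 was called, Cd34, a surface sialomucin, at 80.1 ± 1.84 FPKM in Mito_T and 60.3 ± 2.49 FPKM in Ctrl (log2 change 0.41, limma adjusted p = 0.0265), a call lost without any 1 library (adjusted p 0.0505 to 0.149). Eng, at 63.1 ± 5.08 FPKM in Mito_T and 59.0 ± 4.47 FPKM in Ctrl, overlapped between the groups (limma adjusted p = 0.664). Kdr at 3.00 ± 0.262 FPKM in Mito_T and 3.94 ± 0.249 FPKM in Ctrl (limma adjusted p = 0.143) and Flt1 at 7.75 ± 0.278 FPKM in Mito_T and 10.04 ± 0.932 FPKM in Ctrl (0.114), both receptors of VEGF, were lower in every Mito_T library, without passing. They were the only 2 of the 7 tested endothelial genes with a log2 change below 0. The other 5 were above 0, and the list's median was 0.09. The part of either set of cells in the change of Lama4 was not tested. Of the 12 astrocyte markers, 3 were at 0 in every library, Aqp4 among them, and Gfap was at 0.065 to 0.198 FPKM in Mito_T and 0.0164 to 0.196 FPKM in Ctrl libraries. Their sum, 82.95 to 86.6 FPKM in Mito_T and 66.4 to 105 FPKM in Ctrl libraries, overlapped between the groups, with 0 of 5 tested genes called by limma and 1, Aldoc, at an unadjusted p under 0.05, with 17.9 ± 2.28 FPKM in Mito_T and 14.1 ± 1.61 FPKM in Ctrl (limma adjusted p = 0.268). Among those too low to test, Aldh1l1 was at 0.972, 1.15 and 1.06 FPKM in Mito_T replicates 1 to 3, against 0.416, 0.455 and 0.302 FPKM in Ctrl replicates 1 to 3, and Slc1a2 at 0.0744 to 0.169 FPKM in Mito_T and 0.0128 to 0.0683 FPKM in Ctrl libraries. Aldoc, Aldh1l1 and Slc1a2 were higher in every Mito_T library. Of the 5 tested log2 changes of the astrocyte list, 2 were above 0 and 3 below, with a median of −0.04. By the estimated depth, Slc1a2 rested on about 21 to 54 fragments in Mito_T and 3 to 17 in Ctrl libraries. The part of astrocyte RNA in the other results was not tested. Of the fibroblast and mural markers too low to test, Col1a2 was lower in every Mito_T library, at 0.0807 to 0.121 FPKM in Mito_T and 0.133 to 0.330 FPKM in Ctrl libraries. By the estimated depth, Col1a2 rested on about 11 to 16 fragments in Mito_T and on 14, 13 and 38 in Ctrl replicates 1 to 3. The genes of this paragraph beyond the called ones, Aldoc, Gfap and Aqp4 are named after seeing their values, because their groups did not overlap or, for Eng, because of its level.

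Laminin and nidogen transcripts are long, between 4876 bases (Nid2) and 11388 bases (Lama5) for the longest annotated form. Over all genes tested, the median log2 change was 0.00 for transcripts up to 2000 bases, −0.02 for those up to 4000, −0.01 for those up to 6000, 0.01 for those up to 8000 and 0.04 for longer ones. The members in the class up to 8000 bases were Lama4, Nid1 and Lamc1, at 6046, 6091 and 7622 bases. Each lay below the lower quartile of that class, −0.07, with log2 changes of −0.51, −0.38 and −0.11. Among longer transcripts, with quartiles of −0.042 and 0.116, Lama5 at 0.16 lay above the upper quartile and Lama1 at 0.02 between them. In the class up to 6000 bases, with quartiles of −0.077 and 0.07, Lamb1 at −0.06 and Nid2 at 0.00 lay between them and Lamb2 at −0.10 below. The part of transcript length in these changes was not tested.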

How the data were processed

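RNA was sequenced in 6 libraries labelled bEnd.3, 3 Mito_T and 3 Ctrl, on silica-column RNA with a stranded mRNA kit, per the labels' protocols. The authors deposited 1 FPKM column per library; the headers name no unit, and it was read from the values, which were not whole and summed to 281433 to 297838 per library. FastQC 0.11.5, STAR 2.5.3a and StringTie 1.3.1c with GRCm38 (mm10) are named in the submitters' processing notes, without roles or settings. GENCODE M21 gave symbols and positions for 55154 identifiers, and RefSeq the promoters. Depth was estimated by taking the most common low value of genes with 1 transcript as 1 fragment; 18.1% to 19.8% of low values came within 0.02 of whole multiples, too few to recover reads or use a count model. limma 3.58.1 (R 4.3.3) took log2(FPKM + 1), with group as sole term and trended, robust empirical Bayes, for genes reaching 1 FPKM in 3 or more libraries. The code was tested on simulated data. The members and gene lists were chosen with earlier results of these data known. The naming rule took all members, up to 4 called genes per list or else the gene with the smallest p, other laminin chains and 5 cell type markers; some genes are not reported here and were left out of the lists and their counts. Alternatives were other pseudocounts, filters, scalings and variance models, the replicate number as a block, and each library left out.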

Additional observations from a re-analysis of the deposited data

How the results depend on the processing

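Over all genes, 141 were called, and 106 to 156 under other pseudocounts, a mean of at least 5 FPKM, median ratio scaling, quantile normalization, TPM, omission of genes of mitochondrial DNA and plain empirical Bayes, each with 1 member called, Lama4. With no filter 13 genes were called (2500 at an unadjusted p under 0.05) and 0 members. With the replicate number as a block, 56 genes and 0 members were called, with a limma adjusted p of 0.051 for Lama4, Fbln1 and Mmp3 and 0.062 for Sparc and Mmp2. The block is an alternative since the numbers share no stated source, and deviations of libraries with the same number correlated at 0.102, 0.046 and 0.30 across genes; Mito_T replicate 1 correlated best with Ctrl replicate 2. Without 1 library, 15 to 84 genes and 0 to 0 members were called. Among members the direction turned for Lama1, at −0.12 to 0.20 without 1 library, and for Nid2, at −0.040 to 0.035 without 1 library and −0.00017 under TPM; neither was called anywhere. The causes were not tested. Lama2 and Lama3 had a value only with no filter. Depth limits Lama2 most, at about 6 to 11 fragments per library.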
